A study of Mus musculus with 60 samples.

Results

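Mouse hepatocytes exposed to interleukin 6 (IL-6) were followed over the first hours of the response, and the arrays taken at 4 and 8 h were set against those taken at 0.5 and 2 h. The members are 8 of the 60 arrays of the series, chosen by their labels: 4 arrays of the earlier hours, here called the first wave, and 4 of the later hours, the second wave. The cells were primary hepatocytes of male C57BL/6N mice aged 8 to 12 weeks, each experiment using 1 animal or a pool of up to 3. They were plated on collagen and kept for 24 h without serum, with 100 nM dexamethasone in the medium of every group, before 40 ng/ml recombinant human IL-6 was added. The same hours after 40 ng/ml recombinant mouse hepatocyte growth factor (HGF) gave 8 arrays, in which time in culture passed without IL-6. Both stimuli together gave another 8 arrays, and so did cells left without a stimulus. Each condition and hour has 2 arrays. The protocol speaks of 3 biological replicates. The labels leave unsaid if such a pair came from separate animals, so every p-value rests on array-to-array spread that may be technical.

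IL-6 binds its receptor Il6ra on hepatocytes and pairs it with gp130, encoded by Il6st. The kinases bound to gp130 then activate the transcription factor Stat3, which switches on the feedback inhibitor Socs3 within minutes and the acute phase proteins, which the liver secretes during inflammation, over hours. Secreted proteins fold in the endoplasmic reticulum (ER). When folding demand rises, the sensors Atf6, Ern1 and Eif2ak3 raise ER chaperones, ER-associated degradation and the transcription factor Atf4 with its targets, a programme called the unfolded protein response.

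A known DNA element of this programme is the ER stress element, in which CCAAT and CCACG are held 9 bases apart, searched on both strands. It is shown here because ER chaperones rose between the waves under IL-6. Windows from 250 bases before to 50 after the RefSeq start site (GRCm38.p6) were available for 19 of the 23 ER chaperones and folding enzymes measured and for 16 of 18 genes of ER degradation and stress sensing. The element was found in 8 and 2 of them, against 0.119% of all 32851 windows and 0.163% of the 11639 tested genes with a window. Capitals mark the fixed bases of each site, written from CCAAT to CCACG:
Hspa5: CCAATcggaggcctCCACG
Hsp90b1: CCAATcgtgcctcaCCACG
Pdia6: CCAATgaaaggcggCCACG
Calr: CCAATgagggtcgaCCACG
Canx: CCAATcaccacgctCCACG
Creld2: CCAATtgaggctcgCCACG
Ero1b: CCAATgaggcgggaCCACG
Dnajc3: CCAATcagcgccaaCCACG
Syvn1: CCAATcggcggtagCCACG
Derl3: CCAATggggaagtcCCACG

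The site of Hspa5, the main ER chaperone BiP, lies at chr2:34772025-34772043 on the plus strand, 65 bases before the start site. That of Creld2, an ER protein that helps disulphide formation, lies at chr15:88819520-88819538 on the minus strand, 126 bases before the start site of a plus-strand gene. The ubiquitin ligase Syvn1 of ER degradation has its site at chr19:6046532-6046550, 44 bases before the start, and Pdia6, a disulphide isomerase, at chr12:17266491-17266509, 98 bases before it. Hsp90b1, the ER form of the chaperone Hsp90, had a second site 212 bases before its start, beside the one shown at 107 bases. The whole windows of Hspa5 (chr2:34771840-34772139, plus strand) and Creld2 (chr15:88819396-88819695, plus strand), with the element in capitals, read:
Hspa5: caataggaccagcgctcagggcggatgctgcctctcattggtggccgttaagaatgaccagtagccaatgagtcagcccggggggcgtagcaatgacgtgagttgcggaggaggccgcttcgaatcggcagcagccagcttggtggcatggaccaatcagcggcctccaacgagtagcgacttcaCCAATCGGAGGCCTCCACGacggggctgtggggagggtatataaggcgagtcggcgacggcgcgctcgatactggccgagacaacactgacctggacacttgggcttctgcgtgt
Creld2: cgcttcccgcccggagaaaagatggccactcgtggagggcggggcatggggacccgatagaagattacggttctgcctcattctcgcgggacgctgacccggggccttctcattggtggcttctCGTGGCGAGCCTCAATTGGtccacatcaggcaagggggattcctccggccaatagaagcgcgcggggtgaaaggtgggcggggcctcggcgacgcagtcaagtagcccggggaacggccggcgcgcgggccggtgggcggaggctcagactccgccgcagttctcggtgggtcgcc

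The letters TTCNNNGAA, to which activated STAT factors can bind and which read the same on both strands, are common: 8.30% of all windows and 8.36% of the tested genes held them. They were found in 6 of 24 positive acute phase genes with a window, among them the iron hormone Hamp 97 bases before its start, and in 2 of 22 STAT3 and gp130 genes, one of which is Socs3. Both are shown because Hamp rose into the second wave and Socs3 fell, from windows at chr7:30943980-30944279 and chr11:117969317-117969616, both on the minus strand:
Hamp: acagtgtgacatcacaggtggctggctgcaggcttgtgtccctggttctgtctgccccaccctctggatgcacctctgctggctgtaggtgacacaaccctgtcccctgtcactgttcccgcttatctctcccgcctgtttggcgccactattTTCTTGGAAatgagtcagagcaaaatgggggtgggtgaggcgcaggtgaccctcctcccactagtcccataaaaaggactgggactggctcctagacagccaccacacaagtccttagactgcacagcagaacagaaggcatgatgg
Socs3: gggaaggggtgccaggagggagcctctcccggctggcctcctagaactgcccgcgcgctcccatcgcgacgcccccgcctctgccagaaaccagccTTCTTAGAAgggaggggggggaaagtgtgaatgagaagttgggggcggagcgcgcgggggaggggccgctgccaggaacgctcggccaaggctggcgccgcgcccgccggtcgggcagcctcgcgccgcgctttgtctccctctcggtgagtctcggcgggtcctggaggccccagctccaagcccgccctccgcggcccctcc
Matches in these windows are a description of the letters. No binding was measured.

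Values are log2 intensities, on which a difference of 1 is a 2-fold change, and precision is limited by how few arrays there are. The spiked controls did not part the 8 IL-6 arrays. The 3' minus 5' signal of the labelling control dap was 2.62 to 2.85 in the first wave and 2.77 to 2.91 in the second, and the hybridisation control bioB was 6.82 or more in the first wave and 6.91 to 6.98 in the second. On the HGF arrays dap was alike (2.65 to 2.87), but bioB spanned 6.14 to 8.30 in the first wave and 6.01 to 6.20 in the second. Without the 0.5 h arrays, where bioB was high, the HGF step called 3335 genes, against 4603 with them. The IL-6 step, where bioB did not shift, also went from 4492 to 3463 genes without 0.5 h. For both stimuli together the count went from 6295 to 4814. The part of bioB was not tested. The unstimulated arrays of 0.5 and 2 h had a dap signal of 1.31 to 1.48. Those of 4 and 8 h ran from 1.40 to 2.89, so the HGF arm serves as the main measure of culture time. HGF is itself a stimulus, so a difference from it can lie in either arm. All 7 hepatocyte markers, Alb among them, were above the filter on all 16 IL-6 and HGF arrays. Markers of other cells were low but present: 6 of 10 for macrophages and 8 of 10 for endothelium were above the filter on all 16 arrays, against 2 of 9 for lymphocytes and neutrophils. Their summed linear signal was 676 to 749 on first-wave and 573 to 673 on second-wave IL-6 arrays for macrophages, and 791 to 875 and 616 to 733 for endothelium. A single marker was called in each of these classes, Cd68 (-0.30) and Lyve1 (-0.82). The sum of the hepatocyte markers went from 68813 to 69449 down to 59891 to 65065, and that of the cholangiocyte markers from 414 to 473 down to 372 to 411. The part of these cells in the changes below was not tested. In such bulk samples fewer cells of a type and less RNA per cell cannot be told apart.

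Between the waves 4492 of 14513 genes changed under IL-6 (31.0%; limma, Benjamini-Hochberg adjusted p under 0.05). Of these 2492 rose (17.2%) and 2000 fell (13.8%), with a median over all genes of 0.00. At least 2-fold changes were few: 46 genes rose (0.317%) and 34 fell (0.234%). The same step under HGF called 4603 genes (31.7%), 2296 up (15.8%) and 2307 down (15.9%), with 22 rises (0.152%) and 46 falls (0.317%) of at least 2-fold. The arms share no arrays. The 2580 genes called in both in the same direction were 57.4% of the IL-6 calls and 56.1% of the HGF calls, and 191 genes were called in opposite directions. Across genes, which are not independent replicates, the steps correlated at r = 0.632.

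The difference between the steps, IL-6 minus HGF, passed the same test for 1604 genes (11.1%), 929 positive (6.40%) and 675 negative (4.65%). Counts of called differences in the gene lists below are to be read against these shares. The difference was at least 2-fold and positive for 21 genes (0.145%) and negative for 10 (0.0689%). Of the 46 genes that rose at least 2-fold under IL-6, 38 also rose under HGF and 8 did not pass there, and for 21 the rise was larger under IL-6. Of the 34 that fell at least 2-fold, 31 also fell under HGF, and 13 fell further under IL-6 while 3 fell further under HGF. Among the means at 0.5, 2, 4 and 8 h, 43 of the 46 rising genes were highest at 8 h and 3 at 4 h. The 34 falling genes were highest at 0.5 h in 22 cases and at 2 h in 12. Choice by the step favours these waves, so only the split of hours within a wave is informative. Later hours could lie higher still: Bmper had an IL-6 mean of 9.71 at 8 h and 10.33 at 24 h, and the falling gene Slc30a1 8.81 at 0.5 h and 10.19 at 32 h. When each hour was not given its own mean, or when 0.5 h was left out, the difference called 864 and 806 genes.

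**Figure D1:**
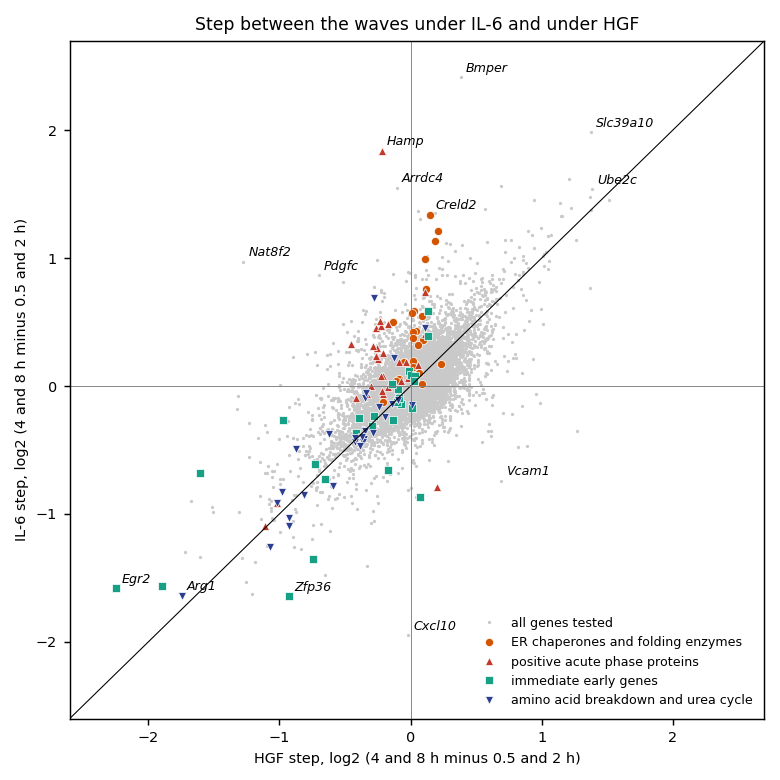
Log2 step from 0.5 and 2 h to 4 and 8 h under HGF (horizontal) and IL-6 (vertical) for the 14513 genes tested, with 4 gene lists in colour and a line of equal steps. Most ER chaperones lie above the line near an HGF step of 0, most amino acid enzymes lie along it on the lower left, and Cxcl10 (IL-6 step -1.95, HGF step -0.02) lies far below it.

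Immediate early genes are transcription factors and regulators induced without new protein synthesis, and 4 of the 34 genes that fell at least 2-fold are on that list (Egr1, Egr2, Fos and Zfp36). The 27 measured split into 16 that fell, 3 that rose and 8 without a call, with a median of -0.25, beside 13.8% of all genes that fell and 17.2% that rose. Under HGF 13 fell and none rose (median -0.14; 15.9% and 15.8% of all genes), and the difference passed for 9, positive for 5 and negative for 4. The RNA-destabilising protein Zfp36 was at 10.30 and 10.43 at 0.5 h and 8.24 and 8.24 at 2 h, then 7.72 and 7.83 at 4 h and 7.46 and 7.63 at 8 h. Every second-wave array lay below every first-wave array. The fall was 1.64 on the log2 scale, or 3.12-fold (SE 0.06, adjusted p = 2.03e-26, 4 arrays against 4), larger than under HGF by 0.71 (adjusted p = 4.33e-09).

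For Fos, Egr1 and Egr2 most of the fall came before 2 h. Fos, a subunit of the factor AP-1, stood at 11.33 and 11.35 at 0.5 h and between 8.12 and 8.28 on the 6 later arrays. Its step of -1.56 (SE 0.08) therefore lay within the first wave, where it fell by 3.17, and without the 0.5 h arrays it was 0.02 (adjusted p = 0.919). The zinc finger factor Egr2 was at 6.29 and 6.37 at 0.5 h, 4.02 and 4.20 at 2 h and 3.37 to 3.79 on the second-wave arrays. That fall of 1.58 (SE 0.12) was smaller than under HGF, where it was 2.25 (difference adjusted p = 0.00561). IL-6 minus HGF was -0.91 in the first wave and -0.24 in the second, where both arms lay below the array medians of 4.88 to 4.97. Atf3, a stress-induced repressor, also fell less under IL-6 (-0.68, SE 0.06) than under HGF (-1.60). The AP-1 subunit Fosl1 fell by 0.87 under IL-6 (SE 0.06) and had a step of 0.07 under HGF. Fosl2 went the other way, rising by 0.59 (SE 0.05) with an HGF step of 0.14. Egr1 fell by 1.35 (SE 0.06) against 0.74, but its change from 0.5 to 2 h was -2.27 and its IL-6 waves overlapped. Up to 4 h Egr1 and Fos each changed by -1.15 in unstimulated cells. The IL-6 excess over unstimulated cells did not pass for Egr1 (0.0052, adjusted p = 0.99) or Fos (-0.34, adjusted p = 0.23). It passed for Egr2 (-1.27, adjusted p = 6.16e-05). Among the 27 genes of the list this excess was negative for 3 and positive for 1 (all genes: 1.28% and 1.27%).

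Feedback regulators of MAP kinases and EGF-family ligands followed. Among 18 measured, 8 fell, 2 rose and 8 were not called under IL-6 (median -0.06; 13.8% of all genes fell and 17.2% rose), against 6, 3 and 9 under HGF, and the difference was negative for 6 and positive for 1. The ERK phosphatase Dusp5 fell by 1.19 (SE 0.08) and the growth factor Hbegf by 1.09 (SE 0.07). Both fell further than under HGF, where the falls were 0.76 and 0.74. Up to 4 h unstimulated cells fell by 0.94 and 0.85. The IL-6 excess over that fall was -0.16 and -0.21 and did not pass (adjusted p = 0.80 and 0.58). Dusp1, which inactivates stress kinases, fell by 0.45 (SE 0.03) with an HGF step of -0.55, a difference that did not pass.

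The chemokine Cxcl10, a ligand of the lymphocyte receptor CXCR3, had the largest fall of all genes tested. It rose within the first wave, from 8.22 and 8.19 at 0.5 h to 9.35 and 9.37 at 2 h, and then dropped to 6.79 and 6.92 at 4 h and 6.94 and 6.67 at 8 h. The waves did not overlap, as naming by the size of the fall required. The step was -1.95, a 3.86-fold fall (SE 0.11, adjusted p = 1.11e-19). Under HGF Cxcl10 lay between 7.53 and 8.34 on all 8 arrays, with a step of -0.02 (difference adjusted p = 9.60e-14). IL-6 minus HGF was 0.84 in the first wave and -1.09 in the second, so the order of the arms turned over. Unstimulated cells were at means of 6.57 at 2 h and 7.09 at 4 h, on arrays whose dap signal was lower than that of the IL-6 arrays.

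Of 18 chemokines measured, 8 fell, 3 rose and 7 did not pass (all genes: 13.8% fell, 17.2% rose). Under HGF 7 fell and 2 rose (all genes: 15.9% and 15.8%). The neutrophil attractants Cxcl1 (-0.87, SE 0.04), Cxcl2 (-1.05, SE 0.13) and Cxcl3 (-1.07, SE 0.17) fell. For Cxcl2 HGF gave the same step of -1.05, whereas Cxcl1 and Cxcl3 fell further under IL-6 than under HGF. Cxcl11, another CXCR3 ligand, fell by 0.48 (SE 0.12) and its HGF step was 0.05. Among 27 interferon-stimulated genes 14 rose and 6 fell, against 6 and 1 under HGF, but the difference between the arms was positive for 5, negative for 3 and not called for 19, with a median of 0.00. The antiviral genes Rsad2 (-0.81, SE 0.16) and Oasl1 (-0.62, SE 0.09) fell and the GTPase Gbp2 rose (0.56, SE 0.09), each with a called difference from HGF.

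**Figure D2:**
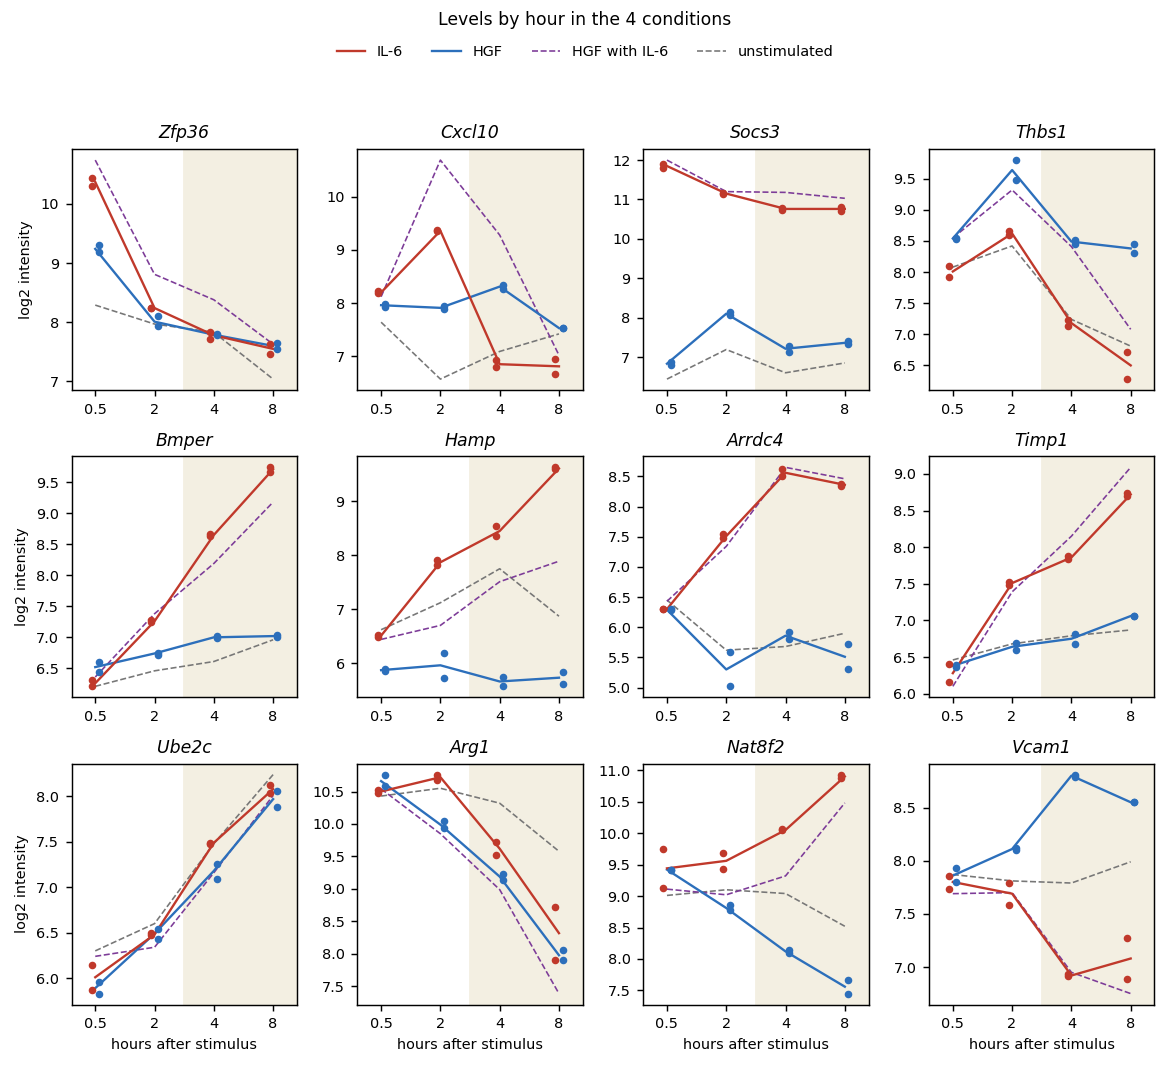
Log2 intensity of 12 genes by hour. Points are single IL-6 and HGF arrays (2 an hour), solid lines their means, dashed lines the means of unstimulated cells and of both stimuli together, and shading marks the second wave. Zfp36 and Socs3 were highest at 0.5 h and Cxcl10 at 2 h under IL-6, Bmper and Hamp reached 9.67 to 9.74 and 9.60 to 9.63 at 8 h, and Ube2c ran together in the IL-6 and HGF arms.

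Socs3, which blocks the gp130-bound kinases, was at 11.90 and 11.81 at 0.5 h and 11.17 and 11.14 at 2 h. On the second-wave arrays it was 10.79 and 10.74, then 10.70 and 10.81, all below the first wave. The fall of 0.74 (SE 0.06, adjusted p = 1.93e-13) exceeded that under HGF by 0.56 (adjusted p = 5.30e-06). Its level remained far above that of HGF-treated cells, by 4.04 in the first wave and 3.48 in the second, and did not change between 4 and 8 h (difference 0.00, adjusted p = 0.99).

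The gp130 pathway was mixed. Of 24 measured STAT3 targets and gp130 signalling genes, 9 rose, 5 fell and 10 did not pass between the waves (median -0.01; all genes: 17.2% rose, 13.8% fell), against 2, 10 and 12 under HGF, and the difference was positive for 10 and negative for 1 (Socs3). Within the first wave 11 rose and 3 fell (all genes: 5.77% and 6.62%). Osmr, the receptor subunit for oncostatin M, went from 8.52 and 8.42 at 0.5 h to 9.67 and 9.63 at 2 h, 10.03 and 9.87 at 4 h and 9.91 and 9.90 at 8 h. It gained 0.87 (SE 0.06, adjusted p = 2.79e-17), with all second-wave arrays above the first wave. The kinase Pim1 (0.64, SE 0.06), the NF-kB cofactor Bcl3 (0.64, SE 0.04) and Stat3 itself (0.37, SE 0.05) rose as well, with HGF steps of -0.04, 0.16 and -0.08. Without 0.5 h Stat3 had a step of 0.14 (adjusted p = 0.0722). Il6st rose by 0.15 (SE 0.03), but by 0.06 as the mean of its probe sets (adjusted p = 0.299). Il6ra fell by 0.50 in both arms, but its other, dimmer probe set had an IL-6 step of 0.12.

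Positive acute phase proteins differed between the arms over the same hours. Among 31 measured, 16 were called up, 3 down and 12 neither under IL-6 (median 0.16; all genes: 17.2% up, 13.8% down), while none rose, 19 fell and 12 were not called under HGF (median -0.22; all genes: 15.8% up, 15.9% down). The difference was positive for 23 and negative for 1. The fibrinogen chains Fga (0.51, SE 0.06), Fgb (0.41, SE 0.05) and Fgg (0.45, SE 0.04) rose. Under HGF Fga and Fgg fell (-0.24 and -0.26), and Fgb had a step of 0.11 that did not pass. Fgg ran from 12.92 and 12.78 at 0.5 h to 13.40 and 13.41 at 2 h and lay between 13.54 and 13.61 on all second-wave arrays. Its gain was thus largely complete by 4 h. Fgl1, a secreted fibrinogen-like protein, had a step of 0.47 (SE 0.05). It was 0.27 above the first wave at 4 h and rose by a further 0.39 to 8 h. The 3 that fell were Crp (-1.10, SE 0.12), the tyrosine aminotransferase Tat (-0.92, SE 0.10) and the IL-1 antagonist Il1rn (-0.79, SE 0.11). Crp and Tat fell under HGF too (-1.11 and -1.02), and Il1rn did not (0.20). Saa1, Saa2 and the Orm genes have near-identical relatives, so their probe sets can hold signal of more than 1 gene.

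Hamp, the hepatic hormone that limits iron uptake, had one of the largest rises. It stood at 6.49 and 6.52 at 0.5 h, 7.82 and 7.92 at 2 h, 8.54 and 8.35 at 4 h and 9.60 and 9.63 at 8 h. The waves were separate, as naming by the size of the rise required, with a step of 1.84, or 3.58-fold (SE 0.11, adjusted p = 6.88e-18). HGF arrays lay between 5.57 and 6.18 throughout, and the arms differed by 1.28 in the first wave and 3.34 in the second (difference of steps adjusted p = 8.57e-14). Unstimulated cells rose too up to 4 h, by 0.88, and the IL-6 excess over that rise was 0.37 and did not pass (adjusted p = 0.49). Hamp shares sequence with Hamp2.

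Bmper, a secreted regulator of bone morphogenetic proteins, rose the most. Its arrays read 6.31 and 6.21 at 0.5 h, 7.28 and 7.25 at 2 h, 8.66 and 8.64 at 4 h and 9.74 and 9.67 at 8 h. The 5.33-fold gain (2.42, SE 0.06, adjusted p = 2.55e-32) came beside rises of 1.00 within the first wave and 1.06 within the second. The HGF arrays went from 6.44 to 7.04 at most (step 0.38), and unstimulated cells gained 0.28 up to 4 h against 1.89 under IL-6 (adjusted p = 2.87e-15).

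The alpha-arrestin Arrdc4 differed in time course. It rose from 6.30 and 6.31 to 7.48 and 7.54 at 2 h and 8.50 and 8.62 at 4 h, and then held at 8.34 and 8.38 at 8 h, while HGF arrays stayed between 5.02 and 6.30. The step was 1.55 (SE 0.09, adjusted p = 6.22e-18) and exceeded that under HGF by 1.66. Timp1, an inhibitor of matrix metalloproteinases, rose by 1.40 (SE 0.07) against 0.40 under HGF. It stood at 6.16 and 6.41 at 0.5 h, 7.53 and 7.48 at 2 h, 7.84 and 7.88 at 4 h and 8.70 and 8.74 at 8 h. The cell-surface glycoprotein Tpbg rose by 1.56 (SE 0.12) against 0.69.

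ER chaperones and folding enzymes rose as a group, and late. Among 23 measured, 19 rose, 1 fell and 3 were not called (all genes: 17.2% rose, 13.8% fell). The median was 0.37, against 0.00 over all genes. All second-wave arrays lay above the first wave for 16, as for 12.1% of all genes. For 1 they all lay below it, as for 9.89% of all genes. Under HGF 3 rose and 2 fell (median 0.04; all genes: 15.8% and 15.9%), and the difference was positive for 16 and negative for none. Within the first wave none rose and 1 fell (all genes: 5.77% and 6.62%). Between 4 and 8 h 19 rose and none fell (all genes: 5.85% and 4.78%). The group thus moved after 2 h.

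**Figure D3:**
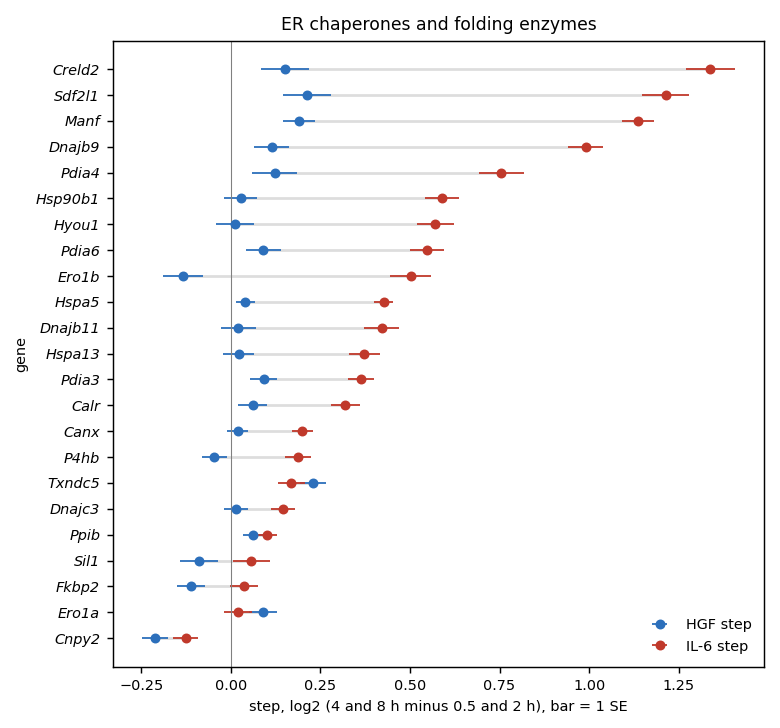
Log2 step of each of the 23 measured ER chaperones and folding enzymes under IL-6 and HGF, with bars of 1 SE from the fit (4 arrays against 4 in each arm). The IL-6 step is above 1 for Creld2, Sdf2l1 and Manf, while HGF steps stay between -0.21 and 0.23.

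Creld2 lay between 9.14 and 9.24 on the 4 first-wave arrays, at 10.04 and 10.07 at 4 h and at 10.92 and 11.08 at 8 h. The waves were well apart, with a 2.53-fold rise (1.34, SE 0.07, adjusted p = 9.62e-21). HGF arrays ran from 9.15 to 9.51, with a step of 0.15 (difference adjusted p = 3.03e-13). At 16 h the IL-6 mean was 10.06 and at 24 h 9.44, near the first-wave level.

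Sdf2l1, a partner of BiP, was at 8.63 to 8.97 in the first wave, 9.45 and 9.42 at 4 h and 10.45 and 10.60 at 8 h. The step was 1.21 (SE 0.07, adjusted p = 1.10e-19), against 0.21 under HGF. Manf, a secreted protein that assists BiP, was at 10.67 to 10.79, then 11.48 and 11.51, then 12.17 and 12.29. It rose by 1.14 (SE 0.05, adjusted p = 3.12e-24), against 0.19 under HGF. Both genes were lower again at 24 h, at means of 9.34 and 10.89.

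Hspa5, already bright, rose in a narrower range, from 13.19 to 13.34 in the first wave to 13.51 and 13.53 at 4 h and 13.84 and 13.89 at 8 h. None of the arrays overlapped, and the step of 0.43 (SE 0.03, adjusted p = 8.55e-18) compared with 0.04 under HGF. The co-chaperone Dnajb9 (0.99, SE 0.05) differed from the rest in reaching its level by 4 h, with a change of -0.16 to 8 h that did not pass. The isomerases Pdia4 (0.75, SE 0.06), Pdia6 (0.55, SE 0.05) and Pdia3 (0.36, SE 0.04) rose, as did Hsp90b1 (0.59, SE 0.05), Hyou1 (0.57, SE 0.05) and the lectin chaperones Calr (0.32, SE 0.04) and Canx (0.20, SE 0.03). Cnpy2 fell (-0.13, SE 0.04), and Sil1, Fkbp2 and Ero1a had steps of 0.06, 0.04 and 0.02. Txndc5 (0.17, SE 0.04) and Ppib (0.10, SE 0.03) rose without a called difference from HGF.

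Of the 19 tested genes whose window holds the ER stress element, 11 rose, 2 fell and 6 did not pass (all genes: 17.2% rose, 13.8% fell). The difference from HGF was positive for 9 and negative for none (all genes: 6.40% and 4.65%). The 10 on the folding and degradation lists all rose. Of the 9 on neither list, Pan2 rose (0.28, SE 0.07), Acacb (-0.18, SE 0.07) and Spats2l (-0.15, SE 0.05) fell, and the other 6 did not pass. Manf and Sdf2l1 had no exact match.

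Genes of ER-associated degradation and the ER stress sensors rose in 13 of 18 cases, with none falling (median 0.20; all genes: 17.2% rose, 13.8% fell). Under HGF 5 rose and 3 fell (all genes: 15.8% and 15.9%). The difference was positive for 7 and negative for none. Herpud1, which recruits ubiquitin ligases to the ER membrane, was at 10.67 and 10.69 at 0.5 h, fell to 9.85 and 9.88 at 2 h, and stood at 11.08 and 11.12 at 4 h and 11.29 and 11.53 at 8 h. The step of 0.98 (SE 0.05, adjusted p = 2.88e-21) compared with -0.25 under HGF. Syvn1 (0.53, SE 0.04), its partner Sel1l (0.38, SE 0.04) and the mannosidase-like Edem1 (0.46, SE 0.04) rose. Xbp1, a transcription factor of the unfolded protein response, rose earlier, by 0.46 from 0.5 to 2 h, and its change between 4 and 8 h was -0.04 and did not pass. Atf6 had a step of 0.04, and fell under HGF (-0.23). Of 34 genes of ER translocation and vesicle export 14 rose and 2 fell, among them a translocon partner, Sec63 (0.39, SE 0.03), and its channel subunit Sec61a1 (0.21, SE 0.03), which rose. The vesicle coat GTPase Sar1b fell (-0.33, SE 0.03).

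**Figure D4:**
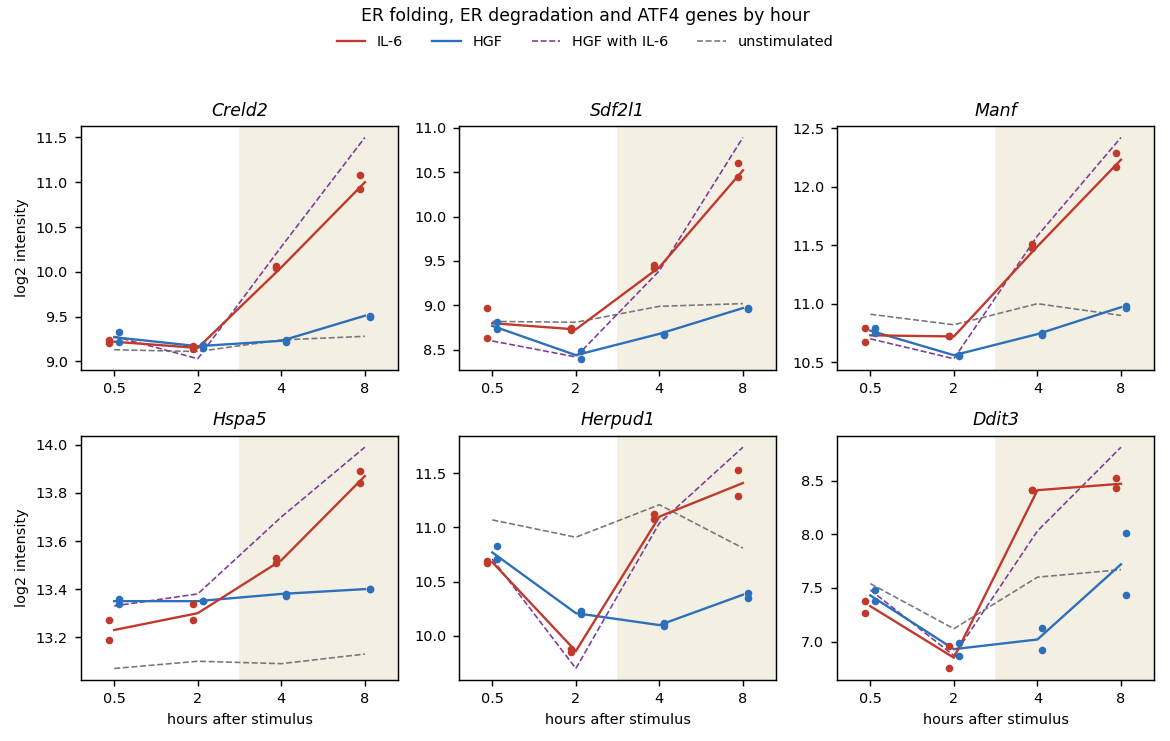
Log2 intensity by hour of 6 genes of ER folding, ER degradation and the ATF4 response. Points are single IL-6 and HGF arrays, solid lines their means and dashed lines the means of unstimulated cells and of both stimuli. Creld2, Sdf2l1, Manf and Hspa5 were near the HGF level at 2 h and above it at 4 and 8 h under IL-6.

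Targets of Atf4 rose in 17 of 26 cases, with 2 falling and 7 not passing (median 0.26; all genes: 17.2% rose, 13.8% fell). Under HGF 9 rose and 5 fell (all genes: 15.8% and 15.9%), and the difference was positive for 11 and negative for none. Ddit3, the factor CHOP, was at 7.27 and 7.38 at 0.5 h, 6.96 and 6.75 at 2 h, 8.41 and 8.41 at 4 h and 8.43 and 8.52 at 8 h. Its waves were separate, with a step of 1.35 (SE 0.10, adjusted p = 6.88e-16) and an HGF step of 0.19. The stress regulator Nupr1 (1.06, SE 0.09), the tryptophanyl-tRNA synthetase Wars (0.93, SE 0.05), the Akt inhibitor Trib3 (0.70, SE 0.07) and the serine synthesis enzyme Phgdh (0.68, SE 0.06) rose. For Phgdh HGF gave nearly as much (0.53), and for Nupr1, Wars and Trib3 the IL-6 step was larger by 0.72, 0.71 and 0.60. Vldlr (-0.42, SE 0.08) and the hormone Fgf21 (-0.29, SE 0.09) fell. The letters TGATGNAA, part of the element ATF4 binds, were in the windows of 9 of 24 of these genes and of 2.85% of all tested genes, on either strand.

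A large part of the second wave was shared with HGF. Among the 46 genes with at least 2-fold rises were the mitotic genes Cdc20, Ube2c, Bub1, Nusap1, Ccnb2, Birc5, Mki67, Top2a and Tpx2, which were picked out after their values were seen. The ubiquitin-conjugating enzyme Ube2c, which drives exit from mitosis, was at 5.87 and 6.15 at 0.5 h, 6.50 and 6.47 at 2 h, 7.48 and 7.49 at 4 h and 8.13 and 8.04 at 8 h. It rose by 1.54 (SE 0.10, adjusted p = 2.17e-16) under IL-6 and by 1.39 under HGF, a difference of 0.15 that did not pass (adjusted p = 0.633). Unstimulated cells gained 1.02 up to 4 h. Cdc20, an activator of the same ubiquitin ligase, rose by 1.62 (SE 0.10) against 1.21, and the kinase Bub1 by 1.48 (SE 0.13) against 1.37. The gene Rsrp1, of the serine- and arginine-rich proteins, gained 1.46 under IL-6, 1.51 under HGF and 1.44 in unstimulated cells up to 4 h.

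The zinc transporters Slc39a10 and Slc30a1, named for the size of their change, moved in both arms. Slc39a10, which imports zinc, was at 7.63 to 8.05 in the first wave, 9.48 and 9.46 at 4 h and 10.26 and 10.43 at 8 h. It rose by 1.98 (SE 0.10, adjusted p = 5.63e-21) against 1.38 under HGF (difference adjusted p = 0.00188). Slc30a1, which exports zinc, was at 8.36 to 8.88 in the first wave, 6.16 and 6.26 at 4 h and 7.96 and 7.68 at 8 h. The step was -1.63 (SE 0.07), and HGF gave -1.21. Against the first wave the IL-6 change was -2.44 at 4 h. The level then rose by 1.61 to a mean of 7.82 at 8 h, still below the first-wave mean of 8.64. At 16, 24 and 32 h the IL-6 means of Slc39a10 were 8.18, 7.83 and 7.78, back near the first-wave level.

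Lists of hepatocyte metabolism held many falls in both arms, beside 13.8% of all genes that fell under IL-6 and 15.9% under HGF. Of 28 genes of amino acid breakdown and the urea cycle, 22 fell and 3 rose under IL-6 (median -0.40), and 23 fell and none rose under HGF (median -0.37). The urea cycle enzyme Arg1 was at 10.47 and 10.53 at 0.5 h, 10.76 and 10.67 at 2 h, 9.52 and 9.72 at 4 h and 7.90 and 8.73 at 8 h. The pair at 8 h differed by more than other pairs. All second-wave arrays were below the first wave, as the rule that named Arg1 required. It fell by 1.64 (SE 0.14, adjusted p = 7.82e-13) under IL-6 and by 1.75 under HGF, a difference of 0.11 (adjusted p = 0.848). Cps1, which feeds ammonia into the cycle, fell by 1.26 (SE 0.07) and by 1.07 under HGF. The 3 that rose were the glutamine synthetase Glul (0.69, SE 0.05), Oat (0.45, SE 0.05) and Cth (0.22, SE 0.06), each with a called difference from HGF, where Glul fell by 0.28.

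Of 21 cytochrome P450 enzymes 16 fell and none rose (median -0.39), with 16 falls and 1 rise under HGF, and the difference was called for none. Cyp3a25 fell most (-1.05, SE 0.09), followed by Cyp2e1 (-0.63, SE 0.05). Bile acid genes fell in 13 of 18 cases in each arm, among them the bile salt importer Slc10a1 (-0.79, SE 0.15) and the synthesis enzyme Hsd3b7 (-0.66, SE 0.04). Of 19 fatty acid oxidation genes 14 fell and none rose, against 12 and none under HGF. Pdk4, which shuts carbohydrate oxidation, fell by 1.14 (SE 0.07) and by 1.00 under HGF. In gluconeogenesis and glycolysis 9 of 22 fell and 4 rose. Pck1 fell by 1.37 (SE 0.19) against 1.18, to 4.03 to 4.70 on second-wave IL-6 arrays, below the array medians of 4.88 to 4.97. Its other, dimmer probe sets had IL-6 steps of -0.10 and 0.01. Up to 4 h Pck1 changed by -0.15 in unstimulated cells, and the IL-6 excess passed (-1.20, adjusted p = 0.0307). The glucose transporter Slc2a2 fell further under IL-6 (-1.26, SE 0.06) than under HGF (-0.89; difference adjusted p = 0.00199). Of 16 liver transcription factors 10 fell, among them the bile acid receptor Nr1h4 (-0.74, SE 0.07), Nr1i2 (-0.71, SE 0.11) and Ppara (-0.56, SE 0.08).

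Ribosome biogenesis genes had more rises under HGF. Of 27 ribosome biogenesis genes 3 rose and 2 fell under IL-6 (median 0.01; all genes: 17.2% and 13.8%). Under HGF 17 rose and none fell (median 0.13; all genes: 15.8% and 15.9%), and the difference was negative for 6. Wdr43, which acts in small subunit assembly, fell by 0.13 under IL-6 (SE 0.04) and rose by 0.17 under HGF. Of 32 G1/S and replication genes 12 rose under IL-6 and 21 under HGF, none fell in either, and the difference was negative for 4. Cyclin D1, Ccnd1, rose by 0.39 (SE 0.08) and 0.60, a difference that did not pass, and its IL-6 step without 0.5 h was 0.24 (adjusted p = 0.066). Among 19 cell cycle inhibitors and p53 targets the difference was positive for 6 and negative for 2. The death gene Pmaip1 had a step of 0.22 (SE 0.09, adjusted p = 0.0575) and fell by 0.90 under HGF, and Phlda3, an Akt inhibitor, rose by 0.52 (SE 0.04) with an HGF step of 0.01.

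Some genes moved in opposite directions in the arms: 112 rose under IL-6 and fell under HGF, and 79 did the converse. The difference itself passed for all 191, which adds little, since 2 called steps of opposite sign add up in it. The acetyltransferase-like gene Nat8f2 was at 9.75 and 9.13 at 0.5 h, 9.43 and 9.69 at 2 h, 10.05 and 10.06 at 4 h and 10.93 and 10.87 at 8 h under IL-6. On HGF arrays it fell from 9.42 and 9.42 to 7.45 and 7.66 at 8 h. The steps of 0.97 (SE 0.11) and -1.28 differed by 2.25 (SE 0.15, adjusted p = 1.26e-15). The growth factor Pdgfc rose by 0.87 (SE 0.07) and fell by 0.70 under HGF. In the converse direction, the adhesion molecule Vcam1 fell by 0.74 (SE 0.08) and rose by 0.69 under HGF. Its probe sets disagree, since another of them had an IL-6 step of 0.32. Igfbp3, which binds insulin-like growth factors, fell by 0.47 (SE 0.12) and rose by 0.89. The plasminogen activator Plat fell by 0.47 (SE 0.13) and rose by 0.82. For Igfbp3 and Plat the IL-6 arrays of the waves overlapped, and both rose within the first wave, by 0.76 and 1.06. The cornified envelope gene Ivl had an IL-6 step of -0.35 (adjusted p = 0.176) against a rise of 1.27 under HGF. Their difference of -1.62 was -1.04 without 0.5 h (adjusted p = 0.0515). Up to 4 h the IL-6 excess over unstimulated cells passed for Pdgfc (1.00) and Vcam1 (-0.77). It did not pass for Nat8f2 (0.57), Igfbp3 (-0.19), Plat (0.13) or Ivl (0.02).

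Each wave also held change of its own. From 0.5 to 2 h 1798 genes changed (12.4%), 837 up (5.77%) and 961 down (6.62%), of which 32 (0.220%) and 17 (0.117%) moved at least 2-fold. The metalloreductase Steap4 led the rises (2.17), from 9.88 and 9.63 to 11.89 and 11.96, followed by the IL-1 receptor Il1r1 (2.02). Both were still near their 2 h level at 4 h and lower at 8 h, by 0.81 and 0.59, so that each step between the waves (0.74 and 0.87) understates the earlier rise. From 4 to 8 h 1542 genes changed (10.6%), 849 up (5.85%) and 693 down (4.78%), of which 9 (0.0620%) and 12 (0.0827%) moved at least 2-fold. Slc30a1 and the clock gene Dbp (1.32) rose most and Slc2a2 (-1.52) and Bhmt (-1.35), which makes methionine, fell most.

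Unstimulated cells offered a check up to 4 h, the last hour at which their dap signal stayed at 1.31 to 1.48. It was 2.62 to 2.91 on the IL-6 arrays, so changes rather than levels were compared. The part of this gap was not tested. IL-6 changed 370 genes beyond the change of unstimulated cells (2.55%), 184 up (1.27%) and 186 down (1.28%), with 10 (0.0689%) and 6 (0.0413%) of at least 2-fold. Leaving out 0.5 h brought this to 87 genes, and single arrays to between 208 and 361, the lowest without the first IL-6 array of 4 h. Among ER chaperones 6 of 23 rose and none fell, among Atf4 targets 8 of 26 rose and 1 fell, and among positive acute phase proteins 5 of 31 rose and none fell. Creld2 gained 0.75 beyond unstimulated cells (adjusted p = 2.91e-05), Manf 0.63 (adjusted p = 2.73e-07), Dnajb9 0.93 (adjusted p = 4.13e-11) and Ddit3 1.06 (adjusted p = 2.46e-05). Cxcl10 was 1.91 lower (adjusted p = 3.97e-10). For the amino acid genes 1 rose and 2 fell of 28, and none of the 21 P450 enzymes passed.

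With both stimuli together 6295 genes changed between the waves (43.4%), 2785 up (19.2%) and 3510 down (24.2%), with 49 (0.338%) and 118 (0.813%) of at least 2-fold. Of the 80 genes that moved at least 2-fold under IL-6 alone, 78 were called in the same direction here, in arrays that neither arm shares. Creld2 rose by 1.74, Sdf2l1 by 1.63 and Manf by 1.38, and 19 of 23 ER chaperones rose. Bmper rose by 1.81 and Hamp by 1.13. Cxcl10 fell by 1.25 from means of 8.12 and 10.69 at 0.5 and 2 h to 9.28 and 7.02 at 4 and 8 h. Pdgfc and Paqr9, which rose under IL-6 and fell under HGF, had combined steps of -0.12 and -0.18. These combined steps were not tested against the single stimuli.

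**Figure D5:**
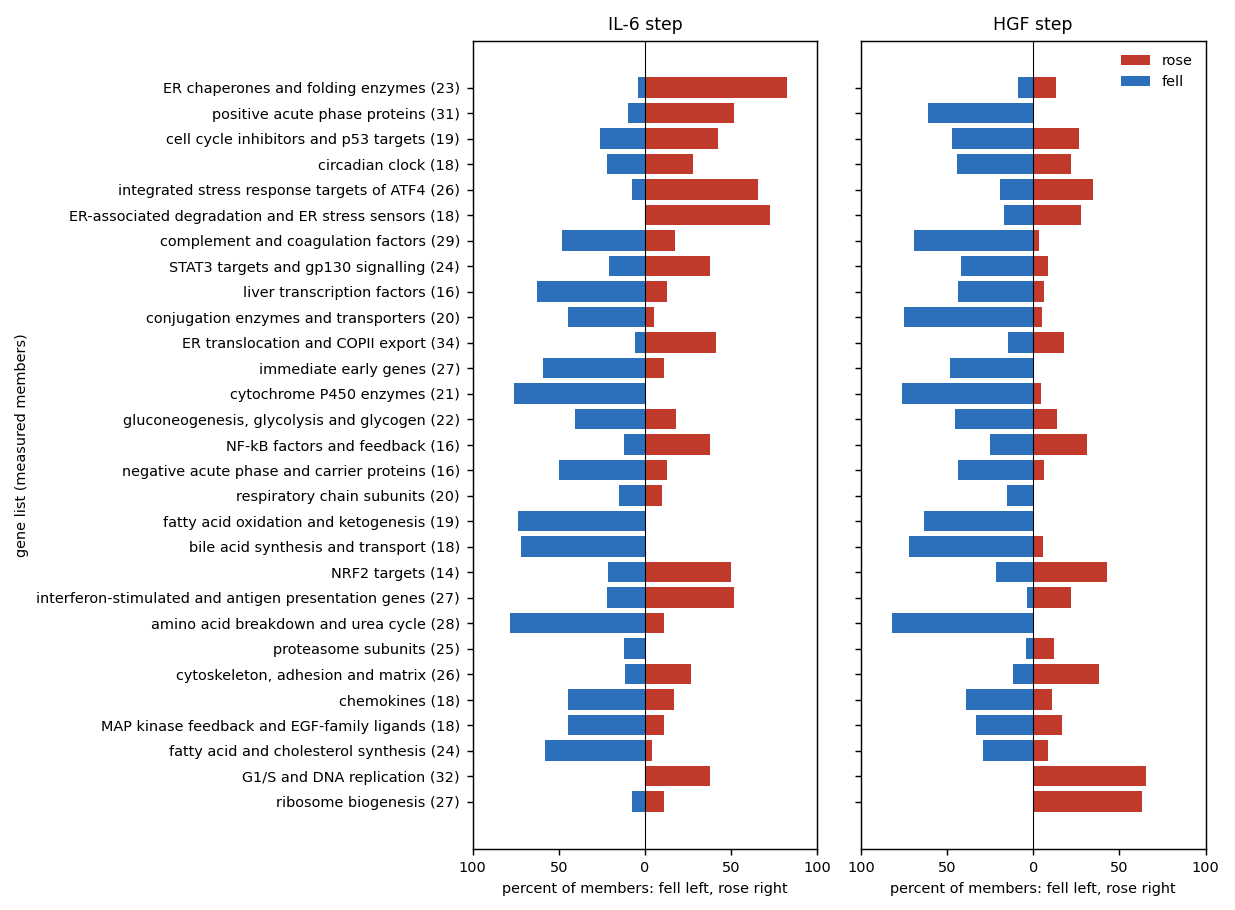
Share of the measured members of 29 gene lists that rose (right) or fell (left) between the waves under IL-6 and under HGF, ordered by the median difference of the steps. ER chaperones (19 of 23 rose, 3 under HGF) and positive acute phase proteins (16 of 31 rose, none under HGF) stand at the top, and ribosome biogenesis (3 of 27 rose, 17 under HGF) at the bottom.

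The remaining lists are to be read against 17.2% of all genes that rose and 13.8% that fell under IL-6 (15.8% and 15.9% under HGF). Complement and coagulation factors fell in 14 of 29 cases and rose in 5 (20 and 1 under HGF), and the difference was positive for 8, such as C1s1 (0.31, SE 0.04, HGF step -0.03). Clock genes rose in 5 and fell in 4 of 18 cases, with 7 positive differences, among them Nr1d2 (0.84, SE 0.06, against 0.54). Conjugation enzymes fell in 9 of 20 cases and rose in 1, the methyltransferase Nnmt (0.58, SE 0.04). Negative acute phase proteins fell in 8 of 16 and rose in 2. Lipid synthesis genes fell in 14 of 24 and rose in 1. Of 16 NF-kB genes 6 rose and 2 fell, of 14 NRF2 targets 7 and 3, and of 26 cytoskeletal genes 7 and 3, the last near the shares over all genes. Proteasome subunits, with 3 falls of 25 and a median of -0.01, and respiratory chain subunits, with 2 rises and 3 falls of 20 and a median of -0.02, changed least often among the lists beside ribosome biogenesis.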

How the data were processed

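RNA was labelled with biotin and hybridised to Affymetrix mouse arrays, per the labels' protocols. The authors deposited 1 table of log2 values (log2 intensity, 45101 probe sets, 60 arrays). Their summarisation and normalisation are not given in the sources used here. Medians were 4.88 to 4.97 per array, so the values were used as deposited. Of 1770 pairs of arrays 0 were identical.

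Of the probe sets 34958 name 1 gene by the platform annotation, 932 several and 9211 none. The last 2 kinds were left out. Each gene took its probe set with the highest mean. Genes above the 40th percentile of an array on at least 2 arrays were kept, 14513 of 18194. A model with 1 mean per condition and hour (29 groups, 31 residual degrees of freedom) was fitted in limma 3.58.1 (R 4.3.3, eBayes with a trend). The step is the mean of 4 and 8 h minus that of 0.5 and 2 h. P-values were adjusted by Benjamini-Hochberg over all 14513 genes, with a threshold of 0.05. Simulated data with known changes served to test the fit.

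The arrays compared, the 29 gene lists and the rules were chosen with earlier results of these data known. The rule for naming genes took the 12 largest IL-6 rises and 12 largest falls with separate waves, the 8 largest differences from HGF each way, the 4 list members of smallest adjusted p, the 4 largest changes within each wave, and Socs3, Cxcl10, Il6ra, Il6st, Stat3, Met and Hspa5. Other names were chosen after their values were seen. Alternatives were quantile normalisation, filters, the mean over probe sets, fewer arrays in the fit and the replicate number within each hour as a block. Others were different variance models, hours pooled, 0.5 h left out, and each array left out. Promoter windows and start sites are from RefSeq (GRCm38.p6), matched by symbol. Of 140 named genes 114 had a window.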

Additional observations from a re-analysis of the deposited data

Results flagged for a closer look

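The difference between the IL-6 and HGF steps was tested for every gene, and in the following results the arms moved in opposite directions. In all, 191 genes were called in opposite directions. Each had a called difference, which 2 called steps of opposite sign make likely. Among the genes named by size of the difference, IL-6 minus HGF was 2.25 for Nat8f2, 1.57 for Pdgfc, 1.41 for Rcan2 and 1.33 for Paqr9, all higher under IL-6. It was -1.43 for Vcam1, -1.36 for Igfbp3 and -1.29 for Plat, all lower under IL-6. Up to 4 h the IL-6 excess over unstimulated cells passed for Pdgfc and Vcam1. It did not pass for Nat8f2, Rcan2, Paqr9, Igfbp3 and Plat. Each IL-6 and HGF group holds 2 arrays, too few to test for a single outlying array.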

How the results depend on the processing

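Counts of genes called stayed within 1.5 times the reported ones under most alternatives, and the exceptions follow. With only the arrays of the comparison in the fit, 2503 genes changed from 4 to 8 h (1542 reported). With the hours of a wave taken as replicates, the difference from HGF called 864 genes (1604 reported) and the excess over unstimulated cells to 4 h called 160 (370 reported). Without 0.5 h these were 806 and 87. Fewer arrays enter the last setting, and the other causes were not tested. Leaving out each array in turn gave 3887 to 4114 genes for the IL-6 step, 3983 to 4205 for HGF, 1300 to 1530 for their difference, 5591 to 5957 for both stimuli, 208 to 361 for the excess to 4 h, 995 to 1390 from 0.5 to 2 h and 721 to 1023 from 4 to 8 h. The lowest came without the first 8 h array for the IL-6 step. The counts moved by over 1.5 times without either IL-6 array of 4 h (208 and 217) or either unstimulated array of 4 h (223 and 236) for the excess, without the first array of 0.5 h (1106) or 2 h (995) from 0.5 to 2 h, and without any of the 4 h (818 and 816) or 8 h arrays (721 and 1023) from 4 to 8 h.

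Of 172 results on named genes 152 were the same in every setting. Without 0.5 h 3 steps changed sign: Fos 0.0225 (adjusted p = 0.919), Nfkbiz 0.00182 (adjusted p = 0.993) and Plk3 0.0881 (adjusted p = 0.461). With the replicate number within each hour as a block the IL-6 step called 4074 genes, that of HGF 4062 and their difference 1584. In that fit both stimuli called 5597, the excess to 4 h 367, 0.5 to 2 h 1301 and 4 to 8 h 1092. With the number alone as the block, a fit chosen after seeing the data, the IL-6 step called 4522. Correlations of the deviations of same-numbered arrays were -0.0207 to 0.0259 over 6 pairs of IL-6 groups, -0.101 to 0.194 over 24 pairs at the same hour and -0.269 to 0.252 over all 120 pairs, not all above 0.1, so the numbers were not taken to pair the samples. The small number of arrays per hour limits what small steps can show.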
